A study of Rattus norvegicus with 6 samples.

Results

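Rbm3 and Cirbp encode the cold-inducible RNA-binding proteins, and each is read by 1 probe set on the GeneChip Rat Gene 2.0 ST array. They are 2 of the 18166 rat genes that have a probe set with a single gene symbol, and both are among the 5478 of these genes that passed the filter on low signals. They were chosen by symbol, after Rbm3 had been seen to be much higher in galactose than in the Control on these same arrays. The comparison of galactose with the Control is therefore a description here and carries no p value for either gene. Lenses of 6-week-old male Sprague-Dawley rats were cultured, and the RNA of 6 samples was measured on 1 array each. The samples were 1 with AZD0156 in galactose, 1 with KU55933 in galactose, 3 in galactose alone and 1 Control without galactose. AZD0156 and KU55933 inhibit Atm, a kinase of the DNA damage response, and each was present at 20 µM for the last 3 of 6 days in 30 mM galactose. The methods name DMSO for the inhibitors and for galactose alone but only sterile water for the Control, and they give the Control 6 days of culture where the scheme of the experiment gives 4, so galactose cannot be told apart from vehicle or time in comparisons with the Control. How many lenses each array stands for is unstated, and nothing says that the galactose samples came from separate animals, so their spread may be technical.

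Both proteins consist of an RNA recognition motif followed by a tail rich in arginine and glycine. In mammalian cells their transcripts rise under mild cooling and fall with heat, and they also respond to hypoxia and other stresses without a fall in temperature. Rbm3 promotes translation and protects neurons in mouse models, and Cirbp stabilises selected mRNAs, moves to stress granules and adjusts the amplitude of the circadian clock. Per the study's methods the lenses were kept at one incubator temperature, so temperature was not a variable of the design.

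The sequence before each gene's start is shown because the cold response of Cirbp has been traced in mouse to an octamer, TCCCCGCC, known as the mild-cold response element. The 250 bases before the start, from RefSeq on build GRCr8, read 5′ to 3′ on the gene's own strand. Capitals mark this octamer, the GC box GGGCGG and the CCAAT box, each searched on both strands. By the RefSeq annotation, the gene already begins inside each window.
Rbm3, chrX:17020655-17020904, plus strand: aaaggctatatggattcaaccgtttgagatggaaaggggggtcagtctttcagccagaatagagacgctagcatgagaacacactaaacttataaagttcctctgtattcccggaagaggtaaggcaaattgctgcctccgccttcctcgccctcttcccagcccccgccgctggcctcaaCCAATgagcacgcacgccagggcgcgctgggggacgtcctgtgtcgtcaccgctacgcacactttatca
Cirbp, chr7:10189476-10189725, minus strand: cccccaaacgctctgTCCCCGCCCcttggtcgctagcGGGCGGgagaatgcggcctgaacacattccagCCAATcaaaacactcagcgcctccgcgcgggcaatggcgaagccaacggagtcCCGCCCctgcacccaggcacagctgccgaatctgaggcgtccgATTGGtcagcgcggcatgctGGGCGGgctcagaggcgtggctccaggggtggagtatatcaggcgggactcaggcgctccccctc

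The Cirbp window held the octamer once, 235 to 228 bases before the start, and the Rbm3 window did not hold these letters. Of 33469 rat windows of the same length, 4.22% held it. The GC box was found 4 times before Cirbp and 0 times before Rbm3, and 30.5% of windows held it. One of the 4 GC boxes overlaps the octamer. The CCAAT box, found in 34% of windows, was present 2 times before Cirbp and once before Rbm3. The pair of inverted heat shock units GAANNTTC (7.23% of windows), the E-box CACGTG of the circadian clock (5.59%) and the full cyclic AMP response element TGACGTCA (1.59%) were not found before either gene. The half-site TGACG of that element stood once before Rbm3, 25 to 21 bases before the start, and 18.2% of windows held it. The Cirbp window was 67.2% G and C, the Rbm3 window 54.8%, and the median window 51.2%. A match of letters is a description of the sequence and does not show that a factor binds there.

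The values below are log2 signals after Robust Multi-array Average normalization, so a difference of 1 is a doubling of the signal, and the signals of different probe sets are not compared with each other. Rbm3 was far above the Control on all 5 arrays with galactose. The Control was the lowest of the 6 arrays for Rbm3 and for Cirbp, as it was for 21.2% of all probe sets. Rbm3 read 8.01, 7.41 and 7.53 on galactose arrays 1, 2 and 3, against 4.59 in the Control. The galactose mean was 7.65 ± 0.317 (SD, n = 3), 8.32-fold the Control. This difference of 3.06 (standard error 0.308 in the limma fit over all 6 arrays) was the 5th highest of the 5784 probe sets tested, whose median was -0.02. The Control lay under the filter value of 5, so Rbm3 passed the filter on low signals through the arrays with galactose. The values carry no detection call, so folds over this Control are ratios of measured signals. Set against the filter value of 5 in its place, Rbm3 was 4.61-fold with AZD0156, 8.26-fold with KU55933 and 6.26-fold in galactose.

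Cirbp was higher than the Control in galactose by a much smaller amount. It read 6.77, 6.98 and 7.22 on galactose arrays 1, 2 and 3, against 6.30 in the Control, and the galactose mean was 6.99 ± 0.226 (SD, n = 3). The difference was 0.69 (standard error 0.271), or 1.61-fold, and it was the 573rd highest of the 5784. All 3 galactose arrays lay above the Control for both genes, which was so for 32.8% of all probe sets. Of the 5784 probe sets, 1.61% passed an adjusted p of 0.05 in limma as higher in galactose and 1.26% as lower (11.2% and 11.9% unadjusted), and nothing is read from this share for the 2 genes, since the contrast served to choose them.

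**Figure D1:**
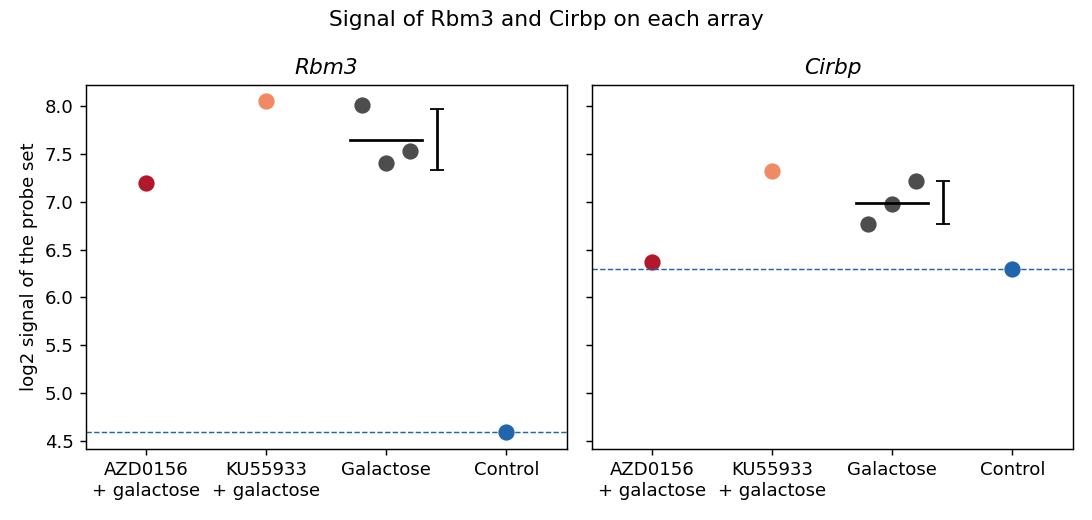
Log2 signal of Rbm3 (left) and Cirbp (right) on each array, by group. Points are arrays, the line and bar at galactose are the mean and SD of 3 arrays, and the dashed line is the Control. Rbm3 is at 7.20 or above on every array with galactose and at 4.59 in the Control, while Cirbp with AZD0156 (6.37) lies beside the Control (6.30).

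With AZD0156, Rbm3 was still far above the Control, while the deposited Cirbp signal was close to it. Rbm3 read 7.20 with AZD0156, against 7.41 to 8.01 in galactose. Its difference from the galactose mean was -0.44 (95% interval -1.17 to 0.29, limma adjusted p = 0.567), which is 14.5% of the way to the Control. Rbm3 with AZD0156 was still 6.12-fold the Control, a log2 difference of 2.61 and the 6th highest of the 5784. Cirbp read 6.37 with AZD0156, against 6.77 to 7.22 in galactose and 6.30 in the Control. Its difference from the galactose mean was -0.63 (95% interval -1.27 to 0.02, limma adjusted p = 0.372), 91.1% of the way to the Control. After the arrays were centred on their medians, these shares were 7.84% for Rbm3 and 58.5% for Cirbp, and the difference between the genes in their share was not tested. As deposited, Cirbp with AZD0156 was 0.06 above the Control, less than the galactose SD of 0.226. After centring it was 0.30 above the Control.

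Both genes lay below all 3 galactose arrays with AZD0156, by 0.20 from the nearest for Rbm3 and 0.41 for Cirbp. This position was common on that array, as 46.6% of all probe sets lay below all 3. The median difference of AZD0156 from galactose over all tested probe sets was -0.18, and relative to it Rbm3 was lower by a log2 difference of -0.26 and Cirbp by -0.44. After such centring, the fitted differences were -0.24 for Rbm3 and -0.43 for Cirbp. limma called 0% of probe sets in this comparison, and at an unadjusted p under 0.05 it found 1.33% higher and 12.4% lower. This count of 0 rests on galactose array 1, without which 109 probe sets were called higher and 946 lower. The unadjusted p was 0.194 for Rbm3 and 0.0544 for Cirbp. The galactose arrays of this comparison are those of the contrast that chose Rbm3, so it is no independent test for that gene.

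With KU55933, both genes read at the upper end of the galactose arrays. Rbm3 read 8.05 with KU55933, against 8.01, 7.41 and 7.53 in galactose, and Cirbp read 7.32, against 6.77, 6.98 and 7.22. They exceeded the highest galactose array by 0.04 and 0.09, and 29.9% of all probe sets lay above all 3 galactose arrays with KU55933. The difference from the galactose mean was 0.40 for Rbm3 (95% interval -0.33 to 1.13, limma adjusted p = 0.992) and 0.33 for Cirbp (95% interval -0.31 to 0.97, limma adjusted p = 0.992). limma called 0% of probe sets with KU55933 (unadjusted p under 0.05 in 2.3% higher and 1.16% lower, with 0.235 for Rbm3 and 0.266 for Cirbp). Without galactose array 1, 218 probe sets were called higher and 221 lower. As with AZD0156, the comparison of KU55933 with galactose shares the galactose arrays of the contrast that chose Rbm3. It is therefore no independent test for that gene. Relative to the Control, Rbm3 was higher with KU55933 by 3.46 and Cirbp by 1.01, or 2.02-fold, the highest Cirbp value of the series.

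The direct comparison of the inhibitors, at the same dose and time, uses neither the galactose signals nor the Control, except that galactose gives the spread. AZD0156 was below KU55933 for both genes, by a log2 difference of -0.84 for Rbm3 (95% interval -1.74 to 0.05, limma adjusted p = 0.454) and of -0.95 for Cirbp (95% interval -1.74 to -0.17, limma adjusted p = 0.376). The unadjusted p was 0.0609 for Rbm3 and 0.024 for Cirbp. As folds, AZD0156 gave 0.558 of the KU55933 signal for Rbm3 and 0.516 for Cirbp. It was 1 pair of compounds over 2 genes, and the p values were adjusted over all 5784 probe sets. The median difference between these arrays was -0.23, and after centring the arrays on their medians the values were -0.60 and -0.71. limma called 0% of probe sets (unadjusted p under 0.05 in 0.882% higher and 10.8% lower). Neither gene passed, and the intervals leave room for differences of more than 1 on the log2 scale, so the arrays do not show that the inhibitors act alike on either gene. To lie below all 3 galactose arrays with AZD0156 and above all 3 with KU55933, as both genes did, was found for 12.8% of all probe sets. Without galactose array 1, limma called 1.37% of all probe sets higher and 12.5% lower between the inhibitors, and among them Rbm3 (adjusted p = 0.0153) and Cirbp (adjusted p = 0.00589), both lower. In AZD0156 minus galactose that fit called 1.88% higher and 16.4% lower, among them Cirbp (-0.74, adjusted p = 0.0116). The AZD0156 and KU55933 signals are unchanged by that omission, and the prior degrees of freedom were 108.2 in place of 4.97. Galactose array 1 also had the lowest summed signal of 6 lens epithelium markers in its group (1010, against 1670 and 1830 on arrays 2 and 3), and the part of this in the result was not tested.

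**Figure D2:**
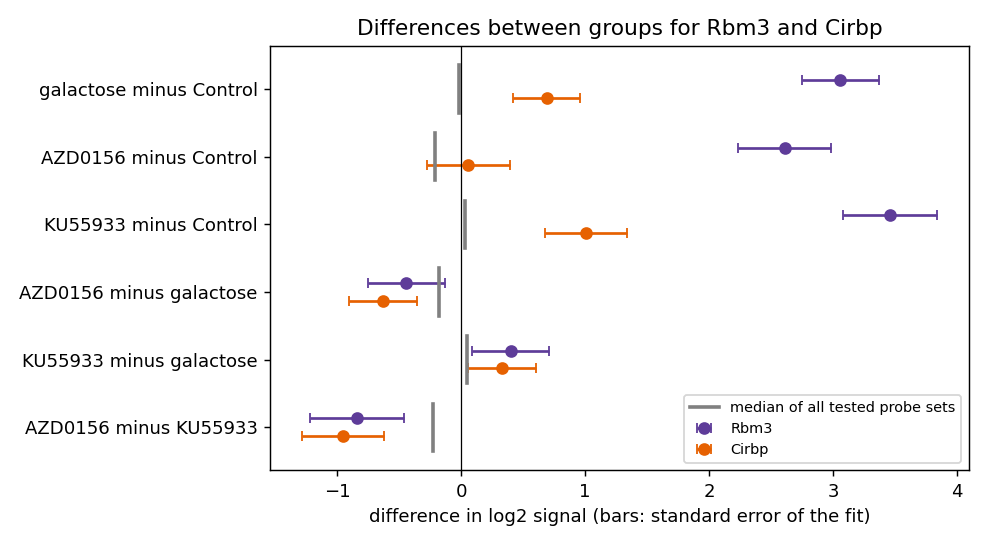
Difference in log2 signal for Rbm3 (purple) and Cirbp (orange) in 6 comparisons, with the standard error of the limma fit as bars. Grey marks are the median of all 5784 probe sets. Rbm3 stands at 2.61 or more in each comparison with the Control, and both genes are negative in AZD0156 minus KU55933 (-0.84 and -0.95).

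In descending order of signal, Rbm3 was at 8.05 with KU55933, 8.01, 7.53 and 7.41 on galactose arrays 1, 3 and 2, 7.20 with AZD0156 and 4.59 in the Control. The step between AZD0156 and the Control exceeded the range of the galactose arrays (0.60), while AZD0156 lay within 1 galactose SD of array 2, as KU55933 did of array 1. Cirbp was at 7.32 with KU55933, 7.22, 6.98 and 6.77 on galactose arrays 3, 2 and 1, 6.37 with AZD0156 and 6.30 in the Control. Here AZD0156 and the Control did not differ beyond the galactose SD as deposited, but did after centring (0.30) or repeated quantile normalization (0.33). KU55933 and array 3 did not differ beyond it, and the step of 0.41 from AZD0156 to array 1 was under the galactose range of 0.45. The galactose arrays thus gave the genes different orders, with array 1 the highest for Rbm3 and the lowest for Cirbp. The SD of Rbm3 among them was larger than that of 75.7% of probe sets and the SD of Cirbp larger than that of 56.5% (median SD 0.203).

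Measured from its own Control value, Rbm3 was above its Control by 2.61 with AZD0156, 3.46 with KU55933, and 3.42, 2.82 and 2.94 on galactose arrays 1, 2 and 3. Cirbp was above its Control by 0.06, 1.01, 0.47, 0.67 and 0.92 on the same arrays in that order. The Cirbp increment minus that of Rbm3 was between -2.95 and -2.02 on all 5. Among the 93 probe sets called higher in galactose, Rbm3 had gone 14.5% of the way to the Control with AZD0156 (median 34.9%, with 74 probe sets further back and 18 less far). After centring, its share was 7.84% (median 21.6%). With KU55933 its share was -13.1% (median 5.31%), and it was 1 of 33 probe sets of the 93 above the galactose mean. These shares use the galactose arrays that chose the 93 probe sets and are given as a description.

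The genes with profiles most like Rbm3 over the 6 arrays, by the smallest root mean square difference after each gene was centred on its own mean, were Atf3, Gdf15, Sdcbp, Stmn4 and S100a1. Atf3 encodes a transcription factor induced by cell stress and differed from the Rbm3 profile by 0.219 on the log2 scale. It read 6.77 with AZD0156, 7.73 with KU55933, 7.32, 7.29 and 6.94 in galactose, and 3.84 in the Control. Gdf15, a secreted stress cytokine, differed by 0.234 and read 7.89 with AZD0156, 8.68 with KU55933, 8.23, 8.13 and 8.47 in galactose, and 5.48 in the Control. The profiles of Sdcbp (syntenin, an exosome adaptor), Stmn4 (a stathmin, which binds tubulin) and S100a1 (a calcium-binding protein) differed by 0.248, 0.255 and 0.37. All 5 were lowest in the Control and lower with AZD0156 than with KU55933, as was Rbm3. They were picked for their likeness to Rbm3 on these same arrays, so this shared pattern follows from the choice. Their differences of galactose from the Control ran from 2.08 for S100a1 to 3.34 for Atf3.

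The profiles nearest to Cirbp, a gene with a smaller range over the arrays, belonged to Ccng2, Adam15, Dnajb11, Calu and Gfpt1. Ccng2, a cyclin linked to cell cycle arrest, differed by 0.0816. It read 5.12 with AZD0156, 6.11 with KU55933, 5.61, 5.61 and 5.86 in galactose, and 4.95 in the Control. Dnajb11 is a co-chaperone of the endoplasmic reticulum, Calu a calcium-binding protein of the secretory pathway, and Gfpt1 the first enzyme of hexosamine synthesis. These and the metalloprotease Adam15 differed from Cirbp by 0.101 to 0.108, and their differences of galactose from the Control were 0.74 to 0.93. With AZD0156, all 5 were, on the deposited scale, nearer their Control value than their galactose mean, from which they differed by -0.82 to -0.56. This too follows from their choice by likeness to Cirbp. Cirbp itself was 435th nearest of 5586 probe sets to Rbm3, with a difference of 0.95.

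**Figure D3:**
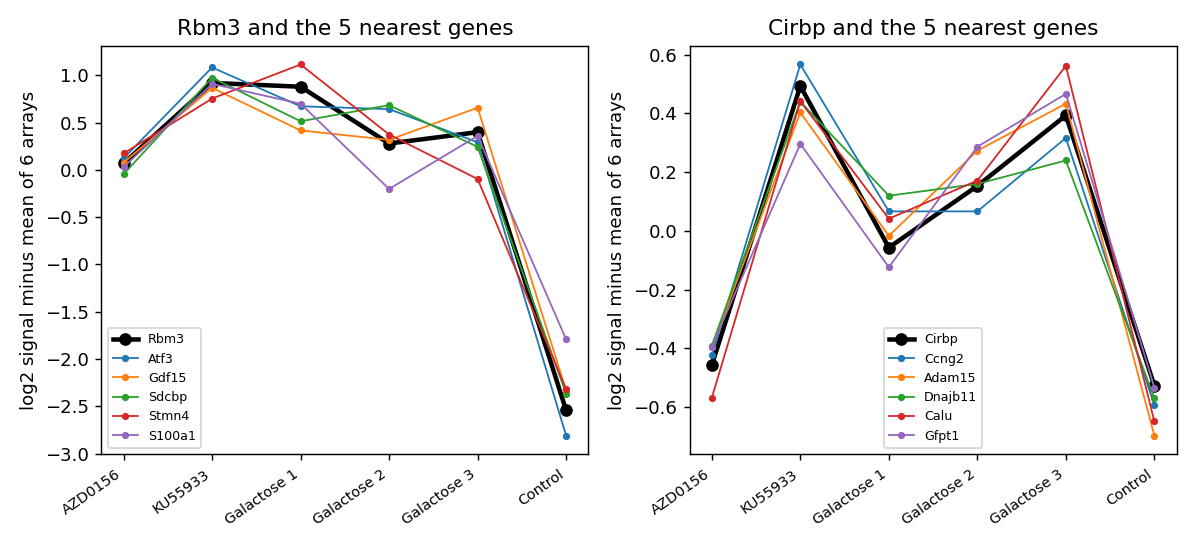
Log2 signal on each array minus the gene's mean over the 6 arrays, for Rbm3 (left) and Cirbp (right) in black and the 5 nearest genes in colour. The lines only join values of one gene. Near Rbm3 the Control stands apart from all other arrays, and near Cirbp the AZD0156 and Control arrays are both low. The coloured genes were chosen for this likeness.

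Of 40 other genes of the RBM family, 33 had a probe set and 19 were tested. In galactose 0 were called higher and 1 lower, with a median of -0.04. Of all probe sets, 1.61% were called higher and 1.26% lower. Before adjustment (p under 0.05), 0 of the 19 were higher and 4 lower, against 11.2% and 11.9% of all probe sets. The gene called lower was Rbm24, which encodes an RNA-binding protein of lens and muscle. It read 5.76 with AZD0156, 6.48 with KU55933, 5.80, 5.68 and 6.21 in galactose, and 7.43 in the Control, a difference of -1.54 between galactose and the Control (limma adjusted p = 0.0426, and 0.118 or 0.0962 without galactose array 2 or 3). A list of 13 relatives with RNA recognition motifs includes the hnRNP A/B and D genes and the splicing factors Tra2a and Tra2b. It had 8 tested members, 0 called and a median of 0.39. Before adjustment (p under 0.05), 3 of the 8 were higher and 1 lower. Tra2b had the highest difference after Rbm3 among all these relatives, 0.94 (adjusted p = 0.0762), and Hnrnpdl had -0.63 (adjusted p = 0.21). With AZD0156, Tra2b read 4.19, against 5.26 to 5.36 in galactose and 4.38 in the Control, a difference of -1.13 from galactose (adjusted p = 0.212). Its AZD0156 and Control signals were under the filter value of 5, so Tra2b passed the filter through the other arrays. Over the tested genes of both lists together with Rbm3 and Cirbp, Rbm3 had the highest difference between galactose and the Control and Cirbp ranked 3 of 29, and the place of Rbm3 follows from its choice on this contrast.

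Of 8 genes with a cold-shock domain, the other family of cold-linked RNA-binding proteins, 3 were tested and 0 called in galactose, with a median of -0.41. Before adjustment (p under 0.05), 0 of the 3 were higher and 1 lower. Ybx3 had a difference of -0.93 (adjusted p = 0.087) and Ybx1, which binds mRNA throughout the cytoplasm, one of -0.41 (adjusted p = 0.271). In galactose, the tested genes among those known to act on Rbm3 and Cirbp were close to the Control. They include the kinase genes Gsk3b and Csnk2a1, the transcription factor gene Sp1, and Plcg1, which acts downstream of the receptor through which Rbm3 is induced in mouse neurons. Of 12 listed, 5 were tested and 0 called (0 at an unadjusted p under 0.05), and their differences ran from -0.13 for Plcg1 to 0.19 for Csnk2a1. Plcg1 was 0.16 without galactose array 1. Temperature can also act through splicing, by CLK kinases and SR proteins. Of 20 genes of this kind, 16 were tested, 0 were called and 5 were higher and 0 lower before adjustment (p under 0.05), with a median of 0.30. Before adjustment, 11.2% of all probe sets were higher and 11.9% lower. The SR proteins Srsf2 (1.11, adjusted p = 0.161) and Srsf1 (0.94, adjusted p = 0.122) had the largest differences. Srsf1 read 5.55 with AZD0156, against 6.12 to 6.72 in galactose and 5.55 in the Control (-0.93 from galactose, adjusted p = 0.276), and Srsf2 differed by -0.81 (adjusted p = 0.421).

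Targets and effectors, genes whose transcripts Rbm3 or Cirbp are known to bind or through which they act, were listed as 14 symbols. Of these, 6 were tested and 0 called in galactose, with a median of 0.06 (0 higher and 1 lower before adjustment). The largest differences were those of Clock (-0.69, adjusted p = 0.189) and the kinase gene Dyrk1b (-0.65, adjusted p = 0.28). The circadian clock list, of 23 symbols and 14 tested genes, had 0 called, 2 higher and 4 lower before adjustment (p under 0.05), and a median of -0.18. Before adjustment, 11.2% of all probe sets were higher and 11.9% lower. Without galactose array 1, 8 of the 14 were called, with 14.2% of all probe sets called higher and 14.1% lower. Nr1d1, a repressor in the clock, had -1.38 (adjusted p = 0.0767) and Nfil3, a repressor of clock output genes, 1.16 (adjusted p = 0.0908). The Nfil3 signals with AZD0156 (4.81) and in the Control (4.07) were under the filter value of 5. The hour of collection of the lenses is unstated.

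Of 20 heat shock genes listed, 15 were tested, 1 was called higher and 1 lower in galactose, and the median was -0.10. The shares of all probe sets called were 1.61% higher and 1.26% lower. Before adjustment (p under 0.05), 2 of the 15 were higher and 3 lower. Without galactose array 1, 8 of the 15 were called, with 14.2% of all probe sets called higher and 14.1% lower. Dnajb1, an Hsp70 co-chaperone that rises with heat, read 6.36 with AZD0156, 6.39 with KU55933, 6.38, 6.36 and 6.48 in galactose, and 8.36 in the Control. Its difference between galactose and the Control was -1.95 (adjusted p = 0.0196, and 0.0873 without galactose array 3). It was low on all 5 arrays with galactose and high in the Control, the reverse of Rbm3. Hspb8, a small heat shock protein, rose by 2.75 in galactose (adjusted p = 0.0317, and 0.0506 without the filter on low signals). It differed from galactose by -1.92 with AZD0156 (adjusted p = 0.212) and by -1.09 with KU55933 (adjusted p = 0.992). Its AZD0156 (4.44) and Control (3.61) signals were under the filter value of 5, so Hspb8 passed the filter through the other arrays. Of 18 stress granule genes, 15 were tested and 0 called in galactose (2 higher and 1 lower before adjustment), with a median of 0.09. The shares of all probe sets before adjustment were 11.2% higher and 11.9% lower. Tardbp (0.85, adjusted p = 0.08) and G3bp1 (0.77, adjusted p = 0.22) had the largest differences. G3bp1, a core protein of these granules, read 3.31 with AZD0156, against 4.90 to 5.56 in galactose and 4.54 in the Control. Its limma adjusted p in AZD0156 minus galactose was 0.212. It reached the filter value of 5 only on galactose arrays 2 and 3 (5.47 and 5.56), so it passed the filter through galactose. Tardbp, under that value only in the Control (4.57), differed from galactose by 0.05 with AZD0156 (adjusted p = 0.937).

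Over all lists, which share some genes, 99 different genes were tested and 3 were called in galactose, 1 higher and 2 lower. This is 3.03%, against 2.87% of all probe sets. With AZD0156 against galactose limma called 0 of the 99 (before adjustment, 1 higher and 17 lower at p under 0.05), with KU55933 0 (2 higher and 3 lower), and between the inhibitors 0 (0 higher and 10 lower). Among all probe sets, 1.33% were higher and 12.4% lower before adjustment with AZD0156. These shares were 2.3% and 1.16% with KU55933, and 0.882% and 10.8% between the inhibitors. With 108.2 prior degrees of freedom, most list counts of 0 also changed on leaving out galactose array 1. Without it, limma called in galactose 3 of the 8 relatives with RNA recognition motifs, 2 of the 3 cold-shock domain genes and 4 of the 16 splicing genes. Also called were 1 of the 6 targets and effectors and 4 of the 15 stress granule genes, while the regulators stayed at 0 of 5. Of all probe sets, 14.2% were called higher and 14.1% lower. Of all 99 genes limma then called 22 in AZD0156 minus galactose, 6 in KU55933 minus galactose and 16 in AZD0156 minus KU55933. The shares of all probe sets were 1.88% higher and 16.4% lower in AZD0156 minus galactose. They were 3.77% and 3.82% in KU55933 minus galactose, and 1.37% and 12.5% in AZD0156 minus KU55933.

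**Figure D4:**
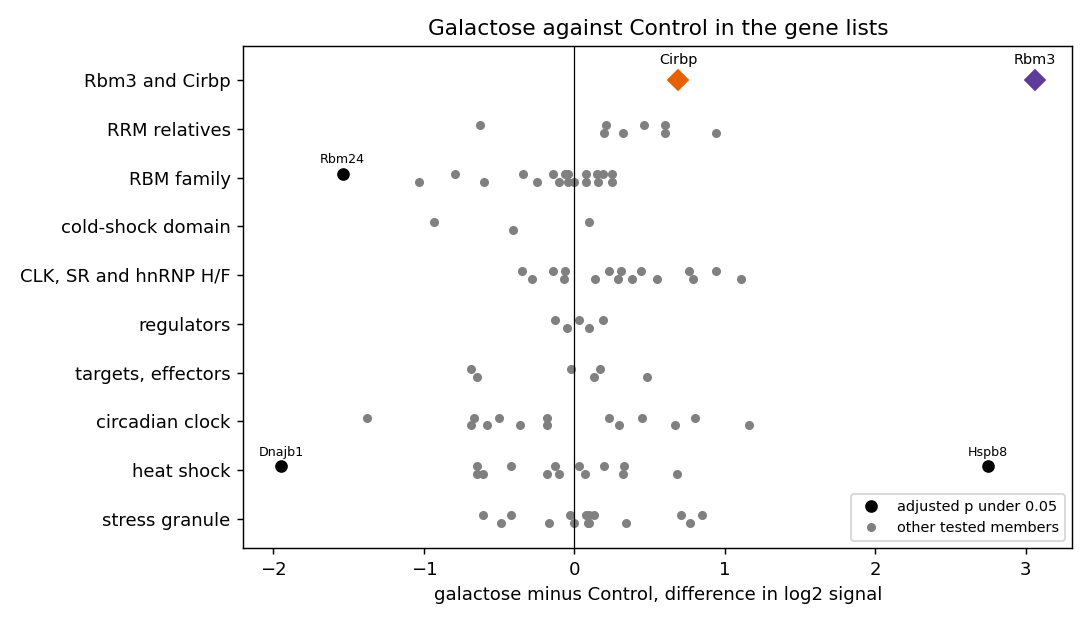
Difference in log2 signal between galactose and the Control for Rbm3, Cirbp and the tested members of each gene list. Large black points passed an adjusted p of 0.05 and are named, and grey points are the other members. Rbm3 (3.06), which was chosen on this contrast, is above every listed gene, the highest being Hspb8 (2.75), and Cirbp (0.69) lies among them.

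As to the tissue, all 8 lens fibre markers with a probe set were tested, with log2 signals up to 13.32, and 1 of them was called in galactose, Gja3, which read 7.49, 7.46 and 7.83 in galactose against 9.09 in the Control. The summed linear signal of the fibre markers was 36800 to 40200 over the 6 arrays. All 6 lens epithelium markers were tested. The summed linear signal of the epithelium markers was 873 with AZD0156, 1050 with KU55933, 1010, 1670 and 1830 in galactose and 976 in the Control. Pdpn was the highest of the 6 on every array with galactose. It read 8.56 with AZD0156, 9.27 with KU55933, 9.42, 9.65 and 9.91 in galactose and 7.45 in the Control. Similar sums can therefore hide differences in the other markers. In galactose, 3 of the 6 were called. Of these, Pdpn was higher and Foxe3 and Aqp1 were lower. Their part in the Rbm3 and Cirbp differences was not tested, and a change in the number of cells of a type cannot be told apart from a change in RNA per cell. The markers of retina (5 with a probe set), pigmented iris and ciliary epithelium (5), immune cells (5) and endothelium (3) were all under the filter, with a highest log2 signal of 4.74, and 0 of 4 blood markers had a probe set of their own. The median signal over the 5784 probe sets was 5.55 with AZD0156 and 5.69 to 5.81 on the other arrays. Only galactose has replicates, so the AZD0156, KU55933 and Control arrays are assumed to vary like it, and the number of arrays limits the precision, with a median standard error of 0.257 for 1 array against the galactose mean.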

How the data were processed

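The deposited values are log2 signals, 1 per probe set and array, that the authors made in R by Robust Multi-array Average normalization over all 6 GeneChip Rat Gene 2.0 ST arrays. Package and version: not given in the sources used here. Values entered as deposited. Of 36685 probe sets, 19086 have a gene in the platform annotation (18511 a single symbol), and 5784 of these reached 5 on at least 1 array, which is the study's filter. The test was limma (3.58.1, under R 4.3.3), in 1 fit of all 6 arrays with 4 group means, 2 residual degrees of freedom and a trend in the variance prior (prior degrees of freedom 4.97). The p values were adjusted by Benjamini-Hochberg over all 5784. The scripts were first tested on simulated arrays. Comparisons of Rbm3 and Cirbp with the Control carry no p, since those arrays chose Rbm3. The genes and lists were chosen with earlier results of these data known. Named from each list were up to 4 genes called in galactose or, with 0 called, the 2 with the largest difference, each by its probe set of highest mean, and the 5 nearest profiles to Rbm3 and to Cirbp. Promoter sequences came from the RefSeq table on GRCr8, matched by symbol for both genes. There were 8 alternatives, namely 2 scalings, 2 filters, no trend, and each galactose array left out. Summaries used Python 3.11.15 with pandas 2.3.3.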

Additional observations from a re-analysis of the deposited data

How the results depend on the processing

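Over 8 alternatives, all 12 differences of Rbm3 and Cirbp kept their direction. Leaving out galactose arrays in turn gave 2.88 to 3.18 for Rbm3 and 0.57 to 0.80 for Cirbp in galactose minus Control, -0.56 to -0.26 and -0.74 to -0.51 in AZD0156 minus galactose, and 0.28 to 0.58 and 0.22 to 0.44 in KU55933 minus galactose, while AZD0156 minus KU55933 stayed at -0.84 and -0.95. Those with AZD0156 that passed the threshold did so without galactose replicate 1. Arrays 2 and 3 then gave 1 residual degree of freedom, against 108.2 prior degrees of freedom. The prior shared by all probe sets therefore set most of the standard error in that fit. Over the alternatives, adjusted p values ran from 0.0153 to 0.772 for Rbm3 and 0.00589 to 0.682 for Cirbp between the inhibitors, and from 0.0116 to 0.72 for Cirbp with AZD0156. Cirbp with AZD0156 was 0.06 above the Control, and 0.30 or 0.33 with arrays centred or quantile normalization repeated. Without the filter, 0 RBM family genes were called in galactose and 1 heat shock gene (Rbm24 at an adjusted p of 0.0808 and Hspb8 at 0.0506). Leaving out galactose arrays, the counts called in galactose were 0 to 3 for the relatives with RNA recognition motifs and 0 to 4 for the RBM family. They were 0 to 2 for cold-shock domain genes, 0 to 4 for splicing genes and 0 to 1 for targets and effectors. For the clock they were 0 to 8, for heat shock genes 1 to 8 and for stress granule genes 0 to 4. For all lists together they ranged from 0 to 22 in AZD0156 minus galactose, 0 to 6 in KU55933 minus galactose and 0 to 16 in AZD0156 minus KU55933, each upper value being without replicate 1. Plcg1 (-0.13) ranged from -0.35 to 0.16, turning positive without replicate 1. Over all probe sets, the counts called higher and lower in galactose were 93 and 73, against 152 and 91 with arrays centred, 71 and 38 with a filter at 6, 36 and 33 without a filter, and 3 to 824 and 3 to 818 leaving out galactose arrays. No paired analysis was possible because only galactose has numbered replicates.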
